A study of Mus musculus with 6 samples.

Results

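The genes described here are Retnla, Slc26a4, Arg1, Chia1, Chil4, Clca1, Muc5ac, Agr2, Itln1 and Spdef, a set of transcripts that type 2 cytokines induce or that mucus-secreting goblet cells make. Every probe set whose platform annotation names only 1 of these 10 genes was taken, which gave 12 of the 45101 probe sets on the array. Such probe sets name 18194 genes in all. The RNA came from the lungs of 6 wild type mice, of which 3 had eaten a control diet and 3 a high fat diet, and each mouse had its own Affymetrix Mouse Genome 430 2.0 array. The diets are the only comparison, and the sample numbers in the labels fall into separate ranges for the diets, so that a difference in cohort or handling that follows these numbers cannot be told apart from diet. The sources used here give no strain, sex, age, diet composition or time on the diet. Each array holds whole lung RNA, so that a change in the number of cells of a type and a change in RNA per cell cannot be told apart.

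In a type 2 response the cytokines IL-4 and IL-13 act through receptors that contain IL-4 receptor alpha and activate the transcription factor STAT6. In macrophages this induces the resistin-like protein Retnla, the arginine-cleaving enzyme Arg1 and the chitinase-like proteins Chil3 and Chil4. In airway epithelium it induces a goblet cell programme that includes the transcription factor Spdef, the mucin-folding protein Agr2, the secreted proteins Clca1 and Itln1, the gel-forming mucin Muc5ac and the anion exchanger Slc26a4. Goblet cells are sparse in the airways of unchallenged mice, and resting club and alveolar type II cells make the acidic chitinase Chia1. Retnla is also made in white adipose tissue.

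RefSeq promoters of build GRCm38.p6, from 250 bases before to 50 bases after the gene's start, were found for 7 of the 10 genes. Those of Retnla (chr16:48842359-48842658, plus strand) and Slc26a4 (chr12:31559935-31560234, minus strand) are shown because these 2 genes were called in the diet comparison. Capitals mark matches to the STAT6-type motif (TTC, any 4 bases, GAA) or to TATAAA.
Retnla: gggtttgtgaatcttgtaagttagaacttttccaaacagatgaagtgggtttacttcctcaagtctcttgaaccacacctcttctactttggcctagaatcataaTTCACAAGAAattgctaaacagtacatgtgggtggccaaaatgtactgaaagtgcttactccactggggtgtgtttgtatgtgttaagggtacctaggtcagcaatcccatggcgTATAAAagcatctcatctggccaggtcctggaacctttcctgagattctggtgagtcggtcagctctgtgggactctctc
Slc26a4: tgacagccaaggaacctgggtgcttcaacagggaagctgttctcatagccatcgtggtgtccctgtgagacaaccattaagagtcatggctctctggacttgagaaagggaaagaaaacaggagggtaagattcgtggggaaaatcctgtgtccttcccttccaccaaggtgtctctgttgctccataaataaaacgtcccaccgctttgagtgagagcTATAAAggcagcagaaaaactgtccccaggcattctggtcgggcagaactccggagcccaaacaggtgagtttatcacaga
The Retnla promoter held 1 match to the STAT6-type motif, whose first base lies at -145 relative to the start, and 1 match to TATAAA at -30. In the Slc26a4 promoter 0 matches to the STAT6-type motif were found and 1 match to TATAAA at -31. Neither held the general STAT motif (TTC, any 3 bases, GAA), which cannot lie inside the longer one. Both strands were searched. Of 32851 RefSeq promoters of this length, 6.95 percent held the STAT6-type motif, 8.3 percent the general STAT motif and 13.6 percent TATAAA. These matches describe letters and do not show binding. TATAAA was searched after the sequences had been seen.

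Signals are MAS5 intensities, in arbitrary units on a linear scale, and on every array their mean without the highest and lowest 2 percent is 500. Only probe sets at or above the 40th percentile of mean log2 signal, which corresponds to a signal of 70.3, were tested. This left 27022 probe sets. A probe set is called when limma's adjusted p is under 0.05, and differences are high fat minus control on the log2 scale. Of the tested probe sets 12.9 percent were called, 4.63 percent higher and 8.27 percent lower. Higher calls made up 35.9 percent of all calls on the deposited scale, 44.8 percent after quantile normalization and 80.1 percent with arrays centred on their median. Median centring moved the median difference of all genes from 0.06 to 0.33. The 3' to 5' signal ratio of the Gapdh control probe sets was 0.743 to 0.795 on control and 0.854 to 0.957 on high fat arrays (two-sided exact permutation p = 0.1, the lowest value possible with 20 relabelings), and the part of RNA quality in the results was not tested. The lung markers Sftpc (32996 to 69407) and Scgb1a1 (38296 to 75983) were bright on all 6 arrays.

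The 2 mice numbered replicate 1 stood apart from the others of their group. On the array of control replicate 1, 10 markers of squamous epithelium summed to a signal of 84185, against 930 to 1412 on the other 5 arrays. There the keratin Krt4 had a signal of 30382, against 28.9 to 281 elsewhere. Markers of skeletal muscle summed to 57561 in control replicate 1 and 19042 in high fat replicate 1, against 599 to 3165 in the other 4 mice. High fat replicate 1 also had the highest signals of several, but not all, genes of airway secretion, as given below. Results are therefore also given without these mice.

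Of the 12 probe sets, 3 passed the filter on low signals, 1 each for Retnla, Slc26a4 and Chia1. Retnla and Slc26a4 rose in high fat mice, by 3.92-fold and 4.46-fold, and Chia1 had a 1.43-fold higher mean that did not pass the test. The other 9 probe sets, for 7 genes, lay too low to be tested, and 8 of these overlapped between the diets. For all 3 tested probe sets every high fat mouse lay above every control mouse, as for 14.6 percent of tested probe sets, and 36.2 percent had no overlap in either direction. Among all 12 probe sets the groups did not overlap for 4, 3 of them higher in high fat mice. Over the 45037 probe sets that are not array controls, this was so for 27.4 percent in either direction and 10.5 percent with high fat higher.

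**Figure D1:**
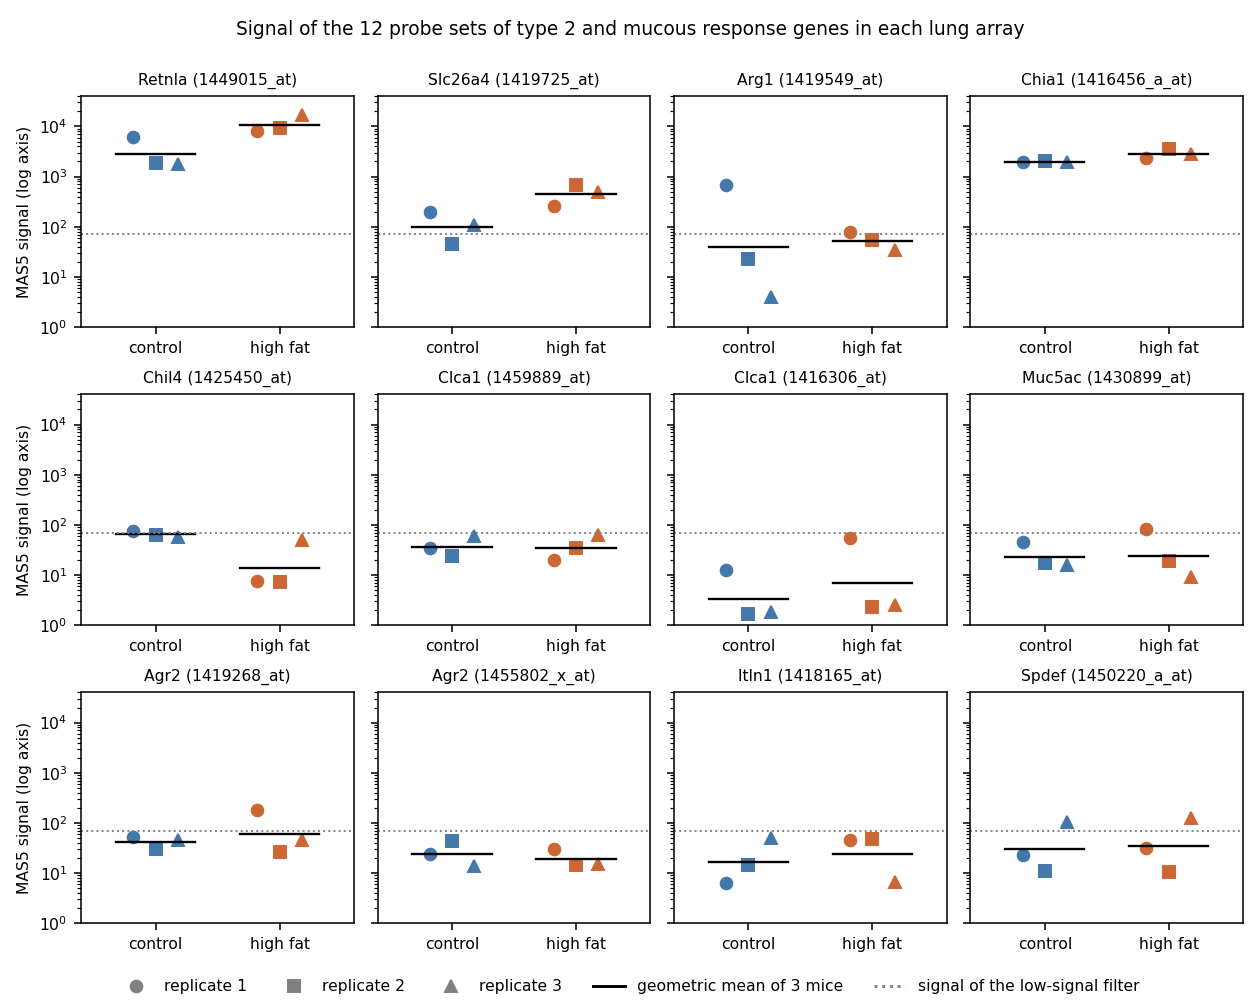
MAS5 signal (log axis) of each of the 12 probe sets on the 3 control (blue) and 3 high fat (orange) arrays, with marker shapes for the replicate number, black bars for geometric means and a dotted line at the filter signal of 70.3. Retnla, Slc26a4 and Chia1 are higher on every high fat array, and most values of the other panels lie below the dotted line.

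Retnla, a secreted protein of macrophages and epithelium, was the brightest member, with a mean log2 signal above that of 97.7 percent of probe sets. Its signal was 6136, 1883 and 1813 in control replicates 1 to 3 and 8078, 9127 and 17055 in high fat replicates 1 to 3. Every high fat mouse lay above every control mouse, but the margin was narrow, since the lowest high fat signal was 1.32 times the signal of control replicate 1. That mouse had 3.38 times the Retnla signal of the lowest control mouse. The means were 3277 ± 2480 and 11420 ± 4910 (SD, n = 3 each). The difference was 1.97 on the log2 scale (SE 0.46, 95% interval 0.93 to 3.01, limma adjusted p = 0.0279). Relative to the median of all genes the Retnla difference was 1.91, and 1.77 after quantile normalization. Centring arrays on their median shifts all genes alike, so it cannot change this relative value. The call was lost without control replicate 2 (1.69, limma adjusted p = 0.102), control replicate 3 (1.67, 0.0976), high fat replicate 2 (2.09, 0.0578) or high fat replicate 3 (1.64, 0.0665). It held without control replicate 1 (2.55, limma adjusted p = 0.0102), without high fat replicate 1 (2.18, 0.0389) and without both (2.76, 0.00661). It was lost with robust variance estimation (limma adjusted p = 0.11) and without an intensity trend (0.0623).

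Retnla can come from fat as well as from lung, and adipocyte transcripts were far higher in the high fat samples. All 6 tested adipocyte markers rose, beside 6.27 percent of all genes called higher. The list summed to 2460 to 5844 in control and 23179 to 32812 in high fat mice. The hormone Lep, which lay below the filter and was not tested, was at 6.3 to 34.2 and 242 to 279. With any 1 mouse left out, 5 or 6 of the 6 tested markers were called. The fat hormone Adipoq had signals of 270, 689 and 1110 in control and 8372, 4790 and 4715 in high fat mice. Within each diet the order of Retnla was not that of Adipoq. Control replicate 1 had the highest Retnla and the lowest Adipoq of its group, and so did high fat replicate 3. The part of adipose RNA in the Retnla difference was not tested. Its relative Retn, which encodes the adipocyte hormone resistin, rose 5.34-fold (limma adjusted p = 0.034), with means of 183 ± 141 and 775 ± 282 (SD, n = 3 each). Retn is 1 of the 6 adipocyte markers already counted above. The Retn call was lost without replicate 1 of both groups (1.37 on the log2 scale, limma adjusted p = 0.0508), and also without control replicate 2 (2.56, limma adjusted p = 0.0882), high fat replicate 1 (2.13, 0.0847), high fat replicate 2 (2.54, 0.0713) or high fat replicate 3 (2.58, 0.0555). Retnlb, the resistin-like protein of gut goblet cells, had signals of only 2.5 to 19.1. No probe set of Retnlg alone was used here.

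Slc26a4, or pendrin, exchanges chloride for bicarbonate and other anions at the apical surface of epithelial cells. Its signal was 198, 46.3 and 106 in control and 261, 670 and 494 in high fat mice. The groups did not overlap, and the nearest values were again those of the mice numbered replicate 1, at a ratio of 1.32. The means were 117 ± 76.2 and 475 ± 205 (SD, n = 3 each), with a difference of 2.16 (SE 0.52, 95% interval 0.97 to 3.34, limma adjusted p = 0.0315). Control replicate 2 lay below the filter signal, which makes the size of the Slc26a4 fold uncertain, and adding 32 before log2 gave 1.81. The call was lost without control replicate 2 (1.61, limma adjusted p = 0.0825), control replicate 3 (2.21, 0.0873), high fat replicate 2 (1.86, 0.0942) or high fat replicate 3 (2.08, 0.0706). It held without control replicate 1 (2.66, 0.0256), without high fat replicate 1 (2.54, limma adjusted p = 0.0294) and without both (3.04, 0.0166), and it was lost without an intensity trend (limma adjusted p = 0.0612). Relative to the median of all genes the Slc26a4 difference was 2.1, and 2.24 after quantile normalization. Median centring cannot change this relative value either.

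Slc26a4 varied most among the tested members, with an SD of 1.43 on the log2 scale over the 6 arrays. The 5 probe sets nearest to it, by Euclidean distance between centred log2 signals over the 6 arrays, were those of Loxl1 (0.9), Slc11a2 (1.13), Csf2 (1.18), Slamf8 (1.41) and Apoc1 (1.42). Of these, the probe sets of Apoc1, an apolipoprotein (2.92-fold, limma adjusted p = 0.00648), and Loxl1, an elastin cross-linking enzyme (limma adjusted p = 0.0456), were called higher. Those of the iron transporter Slc11a2, the cytokine Csf2 and the leukocyte receptor Slamf8 were not called (limma adjusted p = 0.133, 0.115 and 0.104). The Loxl1 probe set is the dimmer one of its gene and had signals of 65.4, 11.5 and 53.1 in control and 130, 201 and 176 in high fat mice. All its control values lay below the filter signal, so that it was tested only because of its high fat values and no fold is given. Of the 6 fits with 1 mouse left out it was called only without control replicate 1 (2.75 on the log2 scale, limma adjusted p = 0.0463, otherwise 0.058 to 0.121). All 5 were chosen for their likeness over these same 6 arrays, which include the diet difference.

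Chia1, an acidic chitinase that cleaves chitin in the airways, varied little among control mice. The Chia1 signal was 1955, 2082 and 1918 in control and 2326, 3482 and 2824 in high fat mice, with no overlap. The means were 1985 ± 86 and 2877 ± 580 (SD, n = 3 each). The difference of 0.52 was not called (SE 0.15, 95% interval 0.17 to 0.86, limma adjusted p = 0.0561). It lay just outside the threshold and was called in 5 of 17 alternatives, among them arrays centred on their median (0.79, limma adjusted p = 0.0172) and the fit without high fat replicate 1 (0.66, 0.0265). Markers of lung epithelium gave the following counts. Of 6 club cell markers 0 were called by limma, with 1 at an unadjusted p under 0.05. Of 7 alveolar epithelial markers 0 were called, again with 1 at an unadjusted p under 0.05. Among all 12689 genes 9.37 percent were called, so a count of 0 among so few markers is near that share. These counts read the brightest probe set of a gene, and a second probe set of the alveolar junction protein Cldn18 was called lower (-1.4 on the log2 scale, limma adjusted p = 0.00595) while the brightest was not (0.07, 0.809).

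**Figure D2:**
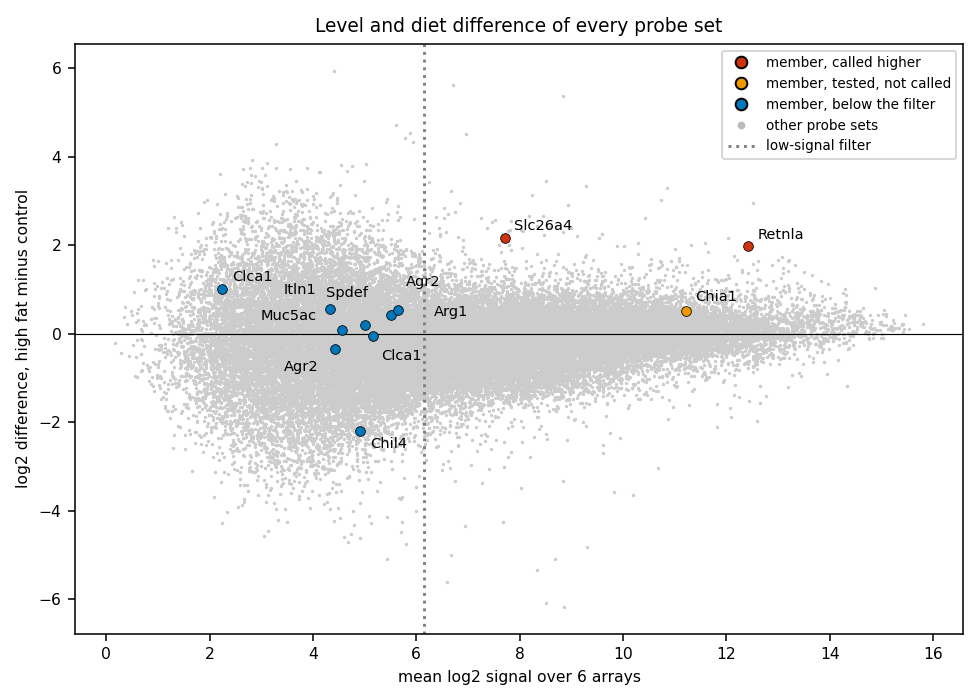
Mean log2 signal over the 6 arrays (horizontal axis) against the log2 difference, high fat minus control (vertical axis), for every probe set but the array controls, with the 12 members in colour. Retnla, Slc26a4 and Chia1 lie to the right of the filter at 6.14, and the other 9 probe sets lie to its left, where the differences of all probe sets scatter widely.

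The remaining macrophage-type members were dim. Arg1, which splits arginine into ornithine and urea, had signals of 676, 22.5 and 4 in control and 78.7, 54.3 and 35 in high fat mice. The groups overlapped, and control replicate 1 was far above all other mice. This is the mouse with the squamous epithelium markers. The chitinase Chit1 was also highest there (654, against 36.8 to 81.8 in the other mice), as was the basal keratin Krt5 (1622, against 58.4 to 140). The part of this material in the Arg1 signal was not tested. Chil4, a chitinase-like lectin, had signals of 76.3, 62.7 and 56.6 in control and 7.6, 7.2 and 50.5 in high fat mice. Every high fat value lay below every control value, although high fat replicate 3 came close to the lowest control mouse. Among probe sets below the filter, 9.78 percent showed such a separation toward lower values.

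Chil3, the close neighbour of Chil4 and a marker of alveolar macrophages, gave a bright signal in every mouse. The Chil3 signal was 14307, 11896 and 12294 in control and 4856, 7652 and 17288 in high fat mice. Its groups overlapped and it was not called (-0.57 on the log2 scale, limma adjusted p = 0.341). As with Chil4, high fat replicate 3 was far above the 2 other high fat mice. The transcripts of Chil3 and Chil4 are near copies, so signals of either may include some of the other, and a probe set that names both was left out of the members. Chil1, another chitinase-like protein, was not called (1.28-fold, limma adjusted p = 0.423).

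Of the goblet cell members other than Slc26a4, most values lay below the filter signal. Spdef, the transcription factor that drives goblet differentiation, had signals of 23.3, 11.2 and 105 in control and 31.2, 10.7 and 124 in high fat mice, with replicate 3 highest in both groups. Agr2, the endoplasmic reticulum protein that mucin folding requires, had signals of 51.8, 30.1 and 46 in control and 182, 26.5 and 45.3 in high fat mice on its brighter probe set. Its second probe set was at 13.6 to 42.9 on all arrays and did not show the high value of high fat replicate 1 (30.6 there). Muc5ac, the gel-forming mucin of goblet cells, had signals of 45.7, 17 and 15.7 in control and 84, 18.9 and 9.2 in high fat mice. Both Agr2 and Muc5ac thus had their highest signal in high fat replicate 1, and their groups overlapped.

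Clca1, a secreted protease of goblet cells, was at 20.2 to 62 on its brighter probe set. Its dimmer probe set was at 1.7 to 12.6 in 5 mice and 54.4 in high fat replicate 1. Itln1, a sugar-binding lectin, had signals of 6.3, 14.8 and 49.1 in control and 44.8, 47.6 and 6.7 in high fat mice, with no order by diet. Of the 54 single-array values of these 9 dim probe sets, 7 reached 70.3, and these fell on Arg1, Chil4, Muc5ac, Agr2 and Spdef. When all probe sets were tested with no filter, none of these 9 was called by limma; Chil4 had a difference of -2.2 on the log2 scale (unadjusted p = 0.027, limma adjusted p = 0.167).

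High fat replicate 1 had the highest signals for some other genes of airway secretion too, whereas Muc16 and Cftr were highest in high fat replicate 2 and Creb3l1 in high fat replicate 3. In high fat replicate 1 the secreted protein Bpifb1 was at 13086, against 342 to 2622 in the other 5 mice. Muc5b, the main gel-forming mucin of resting mouse airways, was at 1456 in that mouse, against 192 to 563. Tff2, a trefoil peptide secreted with mucus, was at 386, against 13.1 to 141. Bpifa1, a protein of the upper airways and glands, was at 42997, against 2682 to 15700, and the club cell secretoglobin Scgb3a1 was at 32456, against 1824 to 8898. In the same group, high fat replicate 2 had the lowest signal of all mice for Bpifb1, Muc5b, Tff2 and Scgb3a1. None of these genes was called (limma adjusted p = 0.835, 0.969, 0.849, 0.979 and 0.996 in the order given). The part of a different share of large airway in the samples was not tested. Bpifb1, Muc5b, Tff2 and Scgb3a1 were named after their values had been seen.

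**Figure D3:**
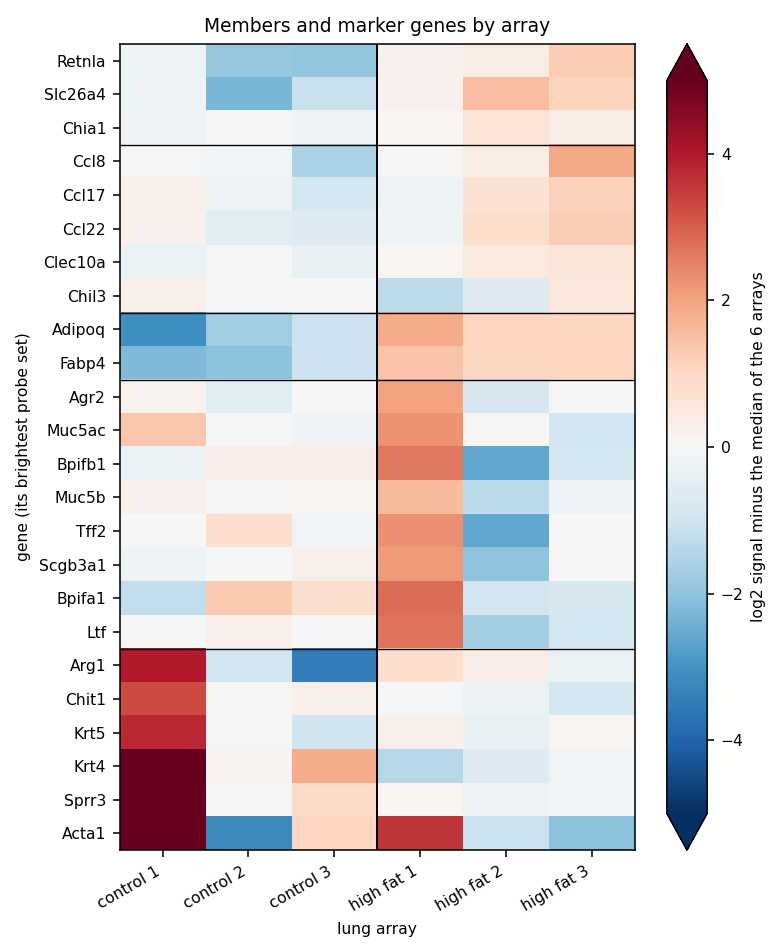
Log2 signal minus the median of the 6 arrays, for the brightest probe set of 24 genes (rows) on each lung array (columns), with the colour scale ending at 5 in either direction. High fat replicate 1 stands out for the airway secretion genes from Agr2 to Ltf, control replicate 1 for the genes from Arg1 to Acta1, and high fat replicate 3 has the highest values of Retnla, Ccl8, Ccl17 and Ccl22.

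Genes upstream of the members were called about as often as genes in general. Of 20 type 2 cytokine, alarmin, receptor and signalling genes, 18 had a probe set and 11 were tested. Of these, 0 were higher, 1 was lower and 10 were not called, with a median difference of 0.15. Over all 12689 genes tested by their brightest probe set, 9.37 percent were called, 6.27 percent higher and 3.1 percent lower, with a median of 0.06. The gene called was Jak1, a kinase that many cytokine receptors share (0.543-fold, limma adjusted p = 0.00595), with means of 4551 ± 351 and 2475 ± 266 (SD, n = 3 each). Its 2 dimmer probe sets were not called and differed in direction (0.25 and -0.5 on the log2 scale), and the mean of the 3 was not called (-0.38, limma adjusted p = 0.0776). Stat6 itself was not called (1.16-fold, 95% interval -0.05 to 0.47 on the log2 scale, limma adjusted p = 0.249). The alarmin Il33, which starts type 2 responses from the epithelium and stroma, was not called either (1.21-fold, limma adjusted p = 0.442).

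The type 2 cytokines themselves were near the floor. Il4 was at 27.2 to 30.1 in control mice and at 3.8, 2 and 44.5 in high fat mice. Il5 was at 1.7 to 17.3 over all mice. Il13, the main inducer of goblet cells, was at 4.6, 5.5 and 5.3 in control and 13.6, 7.7 and 10.8 in high fat mice. The Il13 groups did not overlap, but all values lay far below the filter and were not tested.

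Some genes of mucus-producing and secretory epithelium rose in high fat mice, and 0 were called lower by their brightest probe set. Of 27 such genes fixed as a list, 25 had a probe set and 17 were tested, of which 4 rose and 13 were not called, with a median of 0.28. Among all 12689 genes 6.27 percent were called higher, with a median of 0.06. Cftr, the chloride channel that works beside anion exchangers such as Slc26a4, had means of 197 ± 41 in control and 392 ± 54.7 in high fat mice (SD, n = 3 each), a 2.01-fold rise (limma adjusted p = 0.0214). The membrane mucin Muc16 rose 1.91-fold, the secretory cell transcription factor Creb3l1 1.85-fold and the endoderm factor Foxa1 1.47-fold (limma adjusted p = 0.0367, 0.0447 and 0.034). Cftr remained called without control replicate 1, high fat replicate 1 or high fat replicate 3, Muc16 without high fat replicate 1 or 3, and Creb3l1 and Foxa1 only without high fat replicate 2. Foxa1 was also not called after quantile normalization (0.49, limma adjusted p = 0.0579). The mucins Muc4 (1.32-fold, limma adjusted p = 0.349) and Muc20 (1.58-fold, 0.177) and the Agr2 relative Agr3 (1.52-fold, 0.214) were not called. Other genes of the list were lower in high fat mice and not called either, among them St6galnac1 (0.575-fold, limma adjusted p = 0.142) and Galnt6 (0.722-fold, 0.2). The chloride channel Ano1 was not called by its brightest probe set (-0.11 on the log2 scale, limma adjusted p = 0.766), but its dimmer one was called lower (-0.75, 0.0428). The count of 4 fell to 1, 0 and 0 without control replicate 1, 2 or 3. It was 2 without high fat replicate 2 or without high fat replicate 3. Without high fat replicate 1 it was 3, of which 1 was lower. With all probe sets of a gene averaged it was 0, and Cftr turned to -0.15 through a dim second probe set. Of 6 tested markers of ciliated cells, another cell type of the airway, 3 rose and 3 were not called, beside the same 6.27 percent. Among those that rose were Foxj1 (2.07-fold, limma adjusted p = 0.044) and Cfap126 (1.87-fold, 0.0127). That count was 1 without control replicate 1, control replicate 2, high fat replicate 1 or high fat replicate 3, and 0 without control replicate 3, where limma gave 3 at an unadjusted p under 0.05. The list of ciliated cell markers summed to 3999 to 4564 in control and 5843 to 8902 in high fat mice, and its part in the rise of epithelial genes was not tested.

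**Figure D4:**
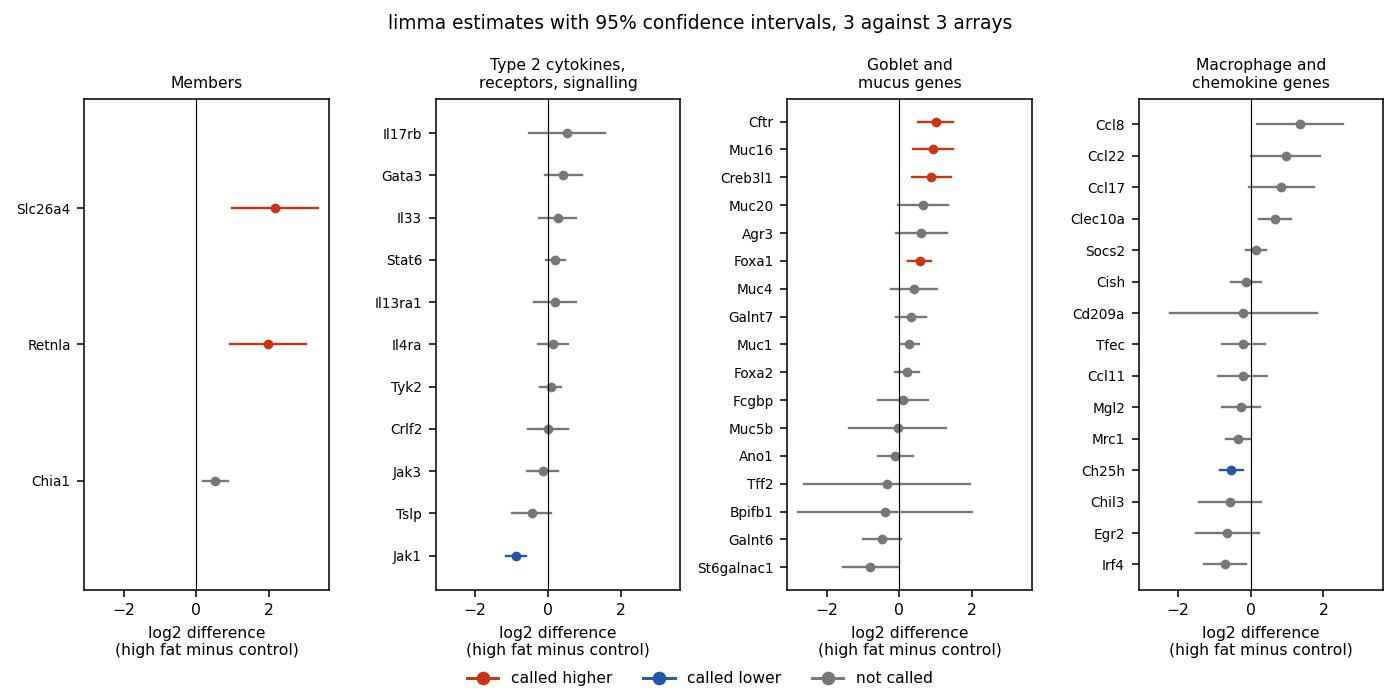
Estimated log2 difference, high fat minus control, with its 95% confidence interval from limma (3 against 3 arrays) for the tested members and the tested genes of 3 pathway lists. Red marks genes called higher, blue genes called lower and grey genes not called. Slc26a4 and Retnla have the largest estimates of the genes shown, and most type 2 signalling genes have intervals that include 0.

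Of 17 genes of alternatively activated macrophages and type 2 chemokines, 15 were tested, 0 rose and 1 fell, with a median of -0.2 and 6 genes at an unadjusted limma p under 0.05. Over all 12689 genes 9.37 percent were called, and 3238 had an unadjusted p under 0.05. The gene called was Ch25h, which makes 25-hydroxycholesterol (0.688-fold, limma adjusted p = 0.0416), with means of 559 ± 23.3 and 385 ± 29.8 (SD, n = 3 each). The Ch25h call was lost in each fit without 1 mouse except that without high fat replicate 3 (limma adjusted p = 0.0442), with values of -0.6 to -0.5 and a limma adjusted p of up to 0.133. With arrays centred on their median Ch25h was not called (-0.26, limma adjusted p = 0.225), and 2 genes of the list were called higher and 0 lower. The chemokine Ccl8 was at 464, 443 and 161 in control and 499, 624 and 1789 in high fat mice. Ccl17, a ligand of the Th2 cell receptor CCR4, was at 266, 190 and 123 and at 191, 367 and 505. Its partner Ccl22 was at 121, 71 and 67.1 and at 91.6, 193 and 246. The lectin Clec10a was at 232, 268 and 227 and at 314, 405 and 444. None of these 4 was called (limma adjusted p = 0.119, 0.182, 0.152 and 0.0555), and all were named after their values had been seen. In each of these 4, as in Retnla, the highest signal was that of high fat replicate 3. Other genes of the list had lower means in high fat mice and were not called. Among them were Irf4 (0.612-fold, limma adjusted p = 0.101), Mrc1 (0.783-fold, 0.148) and Egr2 (0.64-fold, 0.286), also named after their values had been seen.

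Some markers of alveolar macrophages fell in high fat mice, whereas Retnla rose. Of 10 alveolar macrophage markers, 9 were tested, of which 0 rose, 4 fell and 5 were not called, beside 3.1 percent of all genes called lower. Those that fell included Siglecf (limma adjusted p = 0.0121), Krt79 (0.403-fold, 0.0089) and the lysosomal protein Cd68 (0.465-fold, 0.011). Siglecf was at 198, 225 and 240 in control and 38.9, 85.7 and 59.2 in high fat mice. The high fat mean of Siglecf, 61.3, lay below the filter signal of 70.3. Siglecf was thus tested only because of its control values, and the size of its fall is uncertain. The count of 4 was 2 without control replicate 2 or control replicate 3. The Siglecf call was lost without control replicate 2 (limma adjusted p = 0.0547) or control replicate 3 (0.0595). The list of alveolar macrophage markers summed to 21939 to 25715 in control mice and to 10421, 16288 and 25760 in high fat mice, mostly through Chil3. Of the eosinophil markers with a probe set, 5 of 6 lay below the filter and were not tested. The 1 tested was Siglecf, already counted among the alveolar macrophage markers. The eosinophil list summed to 340 to 473 in control and 106 to 126 in high fat mice, mostly through Siglecf and Prg2. The groups overlapped for the other markers of this list. Epx, the eosinophil peroxidase, was at 4.4 to 24.6 and Ccr3, the eotaxin receptor, at 2.3 to 21.3 over all mice. Prg2, a granule protein of eosinophils, was at 164, 210 and 51.3 in control and 23.8, 25.6 and 22.5 in high fat mice. Of 4 tested mast cell and basophil markers 1 was called higher, beside 6.27 percent of all genes. This was Hdc, which makes histamine (2.32-fold, limma adjusted p = 0.00218), and the other 3 were not called. The stem cell factor receptor Kit was among these 3 by its brightest probe set (-0.27 on the log2 scale, limma adjusted p = 0.162), and its second probe set was called lower (-1.06, 0.0107). Hdc was called in each fit with 1 mouse left out (limma adjusted p = 0.00599 to 0.0161), and it is also made by other myeloid cells. The second probe set of Hdc was not called (1.43-fold, limma adjusted p = 0.0558). Some mast cell and basophil markers below the filter, which were not tested, were lower in every high fat mouse. Over all probe sets below the filter, this was so for 9.78 percent. Mcpt4 was at 45.5 to 49.9 in control and 6.6 to 12.4 in high fat mice, and Mcpt8 at 14.2 to 64.4 and 3.4 to 10.2. So was the dimmer probe set of Ms4a2, whereas its brighter one, Tpsb2 and Fcer1a overlapped.

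Of the other genes of arginine use 8 were tested and limma called 0, with 1 at an unadjusted p under 0.05 and a median of -0.08. With 9.37 percent of all genes called, 0 of 8 is near that share. The endothelial nitric oxide synthase Nos3 (1.46-fold, limma adjusted p = 0.134) and the arginine transporter Slc7a1 (1.22-fold, 0.167) had the smallest p-values. Arg2, the mitochondrial arginase, was at 189 to 375 in control and 247 to 633 in high fat mice and was not called (limma adjusted p = 0.443). Nos2, the inducible synthase that competes with Arg1 for arginine, was at 4.7 to 11.4 over all mice.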

How the data were processed

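Lung RNA of 6 mice, 3 per diet, had been extracted with a Qiagen kit and biotin-labelled, per the labels. The deposited intensity values were made by the authors with MAS5, per the submitters' processing notes; the sources used here give no version or settings. Values were floored at 1 before log2. MAS5 subtracts mismatch signal, so dim values are noisy, and no detection calls were used.

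Symbols came from the platform annotation: 34958 probe sets carried 1 symbol, 932 several and 9211 none. Entrez identifiers matched 34754 of them to a RefSeq table (GRCm38.p6), which changed 0 symbols. No gene coordinates are given, since no build is stated for the files. After leaving out 64 control probe sets and those below the 40th percentile of mean log2 signal, 27022 were tested with limma 3.58.1 in R 4.3.3 (lmFit, eBayes with intensity trend, two-sided, 4 residual degrees of freedom), with Benjamini-Hochberg adjustment over all of them. A gene of a list was read from its brightest tested probe set. The procedure was tested on simulated data. Of 50 rises and 50 falls of 1 on the log2 scale, 20 and 15 were called. Of 50 rises and 50 falls of 2, 44 and 40 were called, and there were 5 false calls. A gene that was not called can therefore still differ between the diets. Alternatives covered normalization, offset, filter, variance model, array weights, replicate block, multiple testing and left-out mice. Counts of cell type lists without 1 mouse were added after the data were seen.

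Members and lists were chosen with earlier results of these data known. The squamous epithelium and skeletal muscle lists were added after the data were seen. The rule for named genes took all members, up to 4 called genes per pathway list (otherwise the 2 smallest p-values), bright cell type markers, close relatives of the members and the 5 probe sets most like the most variable member. Other genes named were chosen after their values were seen, unless said otherwise. Nothing says that the mice come from separate cages or litters; p-values measure the spread between these samples, and precision is limited by 3 arrays per group.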

Additional observations from a re-analysis of the deposited data

How the results depend on the processing

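Retnla and Slc26a4 kept their direction in all 17 and 16 alternatives, with log2 differences of 1.64 to 2.76 and 1.61 to 3.04. Retnla was called in 11 and Slc26a4 in 10 of them; Slc26a4 could not be fitted with the filter at the 60th percentile, which removed it. A further fit, not among these alternatives, averaged the probe sets of each gene. Retnla and Slc26a4 have 1 probe set each, so their differences stayed at 1.97 and 2.16. Neither was called in that fit over genes (limma adjusted p = 0.063 and 0.0662). Chia1 lay between 0.37 and 0.79, with calls in 5 of 17. The count of called members was 0 without an intensity trend (3 of 3 at an unadjusted limma p under 0.05) and 1 with the filter at the 60th percentile, where 2 members were tested. With 1 mouse left out it ran from 0 to 3, called probe sets overall from 721 to 3307, mucus genes from 0 to 3, macrophage and chemokine genes from 0 to 3, chitinase and resistin relatives from 0 to 1, type 2 signalling genes from 1 to 1 and arginine genes from 0 to 0. Arrays centred on their median gave 5448 called probe sets, 3 type 2 signalling, 7 mucus, 2 macrophage and 2 arginine genes. Without replicate 1 of both groups there were 1274 called probe sets, 2 mucus genes (1 higher and 1 lower), 2 macrophage genes and 0 relatives. Adjustment over 1 probe set per gene gave 857 calls, 2 mucus genes and 0 macrophage genes. Macrophage genes numbered 2 with the filter at the 60th percentile and with array weights, and 0 with no filter. Without an intensity trend there were 1 mucus gene, 0 macrophage genes and 0 relatives, and relatives numbered 0 with robust estimation and with array weights. Averaging the probe sets of each gene gave 0 type 2 signalling, 0 mucus, 0 macrophage genes and 0 relatives, with 1, 5, 6 and 1 at an unadjusted limma p under 0.05. The cause of these changes was not tested. A planned comparison of protein sequences was not run. Most members were too dim to test.

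Replicate numbers occur in both diets, and the labels do not say whether they pair the mice. Deviations of same-numbered mice correlated at 0.17, 0.11 and -0.04, and those of differently numbered mice at -0.21 to 0.13. The highest value was that of the mice numbered replicate 1. Whether the mice were paired cannot be settled from these values. With the replicate block, 2 member probe sets were called, Retnla (limma adjusted p = 0.0419) and Chia1 (0.0481) but not Slc26a4 (0.0575), and 2 mucus genes, 0 macrophage genes and 0 relatives.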

Other observations

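The probe set that names both Chil4 and Chil3 had signals of 13638, 10676 and 10159 in control and 1776, 3303 and 13159 in high fat mice. High fat replicates 1 and 2 lay below every control mouse there and high fat replicate 3 among them. On the Retnla probe set, in contrast, all 3 high fat mice lay above all control mice, and on both probe sets high fat replicate 3 had the highest signal of its group. These values were not tested.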
